A study of Mus musculus with 8 samples.

Results

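The 41 genes examined here drive or mark the copying of DNA and the division of cells: the MCM helicase, the enzymes of the replication fork, enzymes that make deoxynucleotides, cyclins and their kinases, the mitotic checkpoint, and the G1 gatekeepers. They were chosen by name, with earlier results of these arrays known. Each was read through the brightest probe set that the platform annotation assigns to that symbol alone. A named probe set was found for 37 of the 41, among 8251 named genes on the array, and Ccnb1, Cdc25b, Bub1b and Tyms had none. The RNA came from whole livers of 8 female Ames dwarf mice (df/df), each hybridised to its own Affymetrix U74Av2 array. The df mutation leaves the pituitary without somatotrophs, lactotrophs and thyrotrophs, so the mice make no growth hormone, prolactin or thyrotropin. All 8 mice had water without limit and were given 30% less of a standard pelleted diet than freely fed female df/df mice eat, and they were killed between 24 and 26 months of age. They form 1 group. Freely fed dwarfs and mice of normal size were not analysed here, so neither the diet nor the mutation can be tested, and the comparisons are between mice.

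Most hepatocytes of an adult liver rest outside the cell cycle, and they re-enter it after injury or loss of tissue. In a cell that enters the cycle, D-type cyclins with CDK4 and CDK6 phosphorylate the retinoblastoma protein, which frees E2F factors to turn on genes of DNA synthesis such as the Mcm, Rrm and Pola genes. Later, before mitosis, genes such as Ccnb2, Cdk1, Top2a and Plk1 are turned on together. In whole liver RNA such transcripts can come from hepatocytes or from any other dividing cell, and a larger number of cells of a type and more RNA per cell cannot be told apart.

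Intensities are on the deposited linear scale. The level separating a silent from an expressed gene is not sharp on these arrays. A gene was called detected where its mean over the 8 mice reached 165.2, the median of all values in the table, and values under 37.2, the 25th percentile, were raised to it before conversion to log2. By that rule 20 of the 37 measured genes were detected (54.1%, against 59% of all 8251 named genes). For comparison, 42 genes of eye, brain, muscle, germ cells, pituitary and other tissues, which a liver should not express, had means from 5.12 to 521 with a median of 63.5, and 7 of them (16.7%) also lay above the threshold. Of the 20 detected genes, only Cdk4, Tk1, Pcna and Ccnd3 read above every gene of that silent set, and the other 16 lay in a range that silent genes also reach. The detected genes nearest the threshold were Mcm4, Mcm2 and Cdk2 (means of 186, 188 and 199), and those just under it were E2f1, Mki67 and Fen1 (138, 137 and 118). Levels of different probe sets are not compared as transcript amounts.

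**Figure D1:**
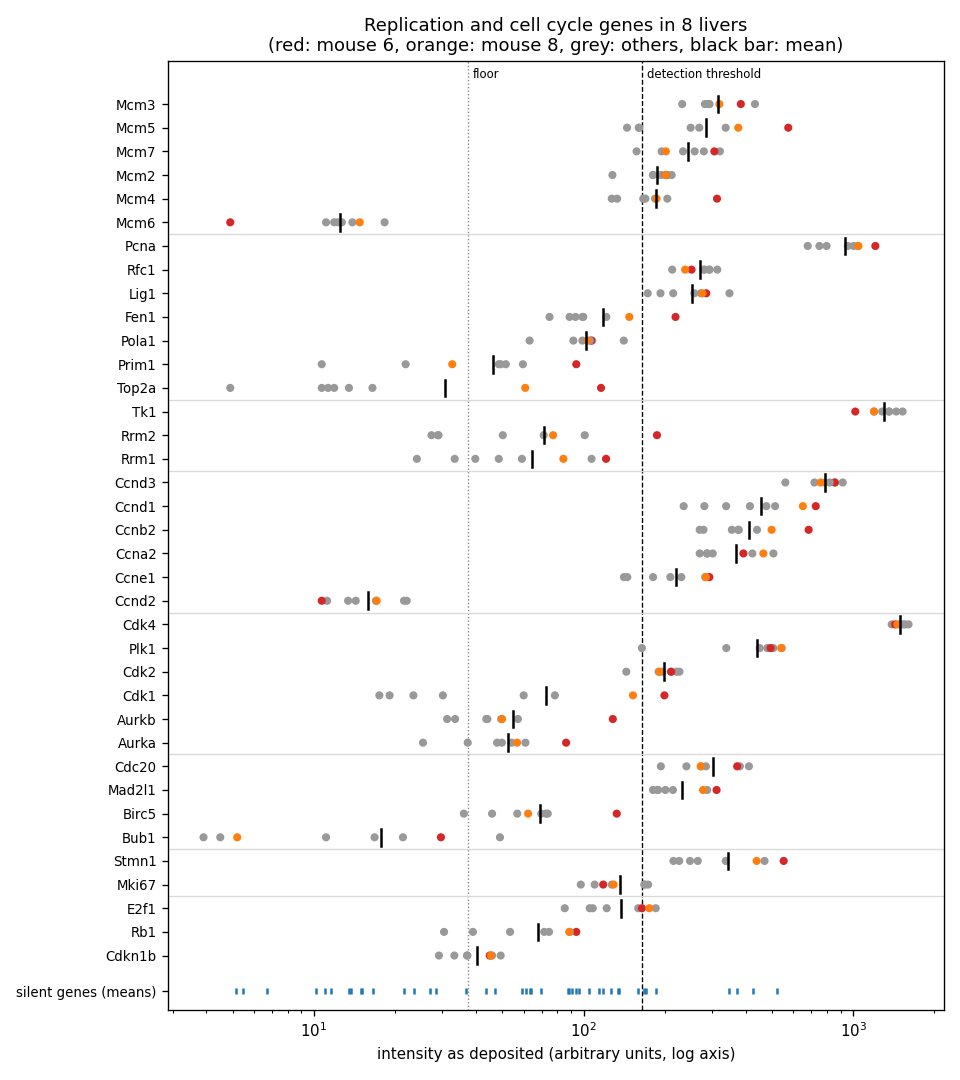
Intensity of the 37 measured genes in each of the 8 mice (log axis, points) with the mean (black bar), grouped by role, above the means of 42 genes silent in liver (blue ticks). The dashed line is the detection threshold of 165.2 and the dotted line the floor of 37.2. Cdk4, Tk1, Pcna and Ccnd3 lie to the right of every silent gene, and in many of the dim genes mouse 6 (red) lies farthest to the right.

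Cdk4, the kinase partner of D-type cyclins, was the steadiest of the 20 detected genes. It read 1535, 1604, 1491, 1389, 1557, 1429, 1507 and 1458 in mice 1 to 8 (mean 1496 ± 70.2, SD, n = 8), a 1.15-fold range. Its SD of 0.07 on the log2 scale compares with a median of 0.23 over the 4869 tested genes. A dimmer Cdk4 probe set, mean 171, ranged 1.66-fold. Ccnd3, a D-type cyclin, read 914, 718, 786, 856, 560, 854, 818 and 757 (mean 783 ± 109), with mouse 5 lowest. Cdk2, the kinase that pairs with cyclins E and A, read 227, 196, 222, 211, 189.8, 211, 144 and 191 (mean 199 ± 26.0), with mouse 7 alone under the detection threshold. Ccnd2, another D-type cyclin, lay under the floor in all 8 mice (10.7 to 22.1) and was not detected.

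Ccnd1, the growth factor responsive D-type cyclin and the one best known from liver regeneration, spread more widely. It read 476, 338, 513, 235, 281, 726, 414 and 650.5 in mice 1 to 8 (mean 454 ± 173, n = 8), a 3.09-fold range with mice 6 and 8 at the top and mice 4 and 5 at the bottom. A dimmer Ccnd1 probe set ranged 5.78-fold, with its highest value in mouse 8 (425) rather than mouse 6 (325) and its lowest in mouse 7 (73.5). Both probe sets therefore placed mice 6 and 8 among the upper 3, but they differed on which mouse was lowest. Ccne1, the cyclin that starts S phase with CDK2, read 283, 210, 141, 145, 181, 293, 230.5 and 284, with mice 1, 6 and 8 close together at the top.

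Mitotic cyclins and checkpoint genes had different patterns between the livers. Ccnb2, a B-type cyclin of mitosis, read 440, 374.5, 355, 278.5, 270, 683, 376.5 and 498 (mean 409 ± 134), so that mouse 6 stood highest, mouse 8 second, and mice 4 and 5 lowest. Ccna2, the cyclin of S phase and G2, did not share that order. It read 506, 270, 287, 301, 423, 391.5, 287 and 464, highest in mouse 1, and mouse 5 was above the median. Cdc20, an activator of the anaphase promoting complex, read 410.4, 241, 272, 194, 379.9, 371, 284 and 272 (mean 303 ± 75.8), likewise highest in mouse 1. Mad2l1, which holds that complex back until chromosomes are attached, read 287, 189, 215, 188, 181, 311, 201 and 277 (mean 231 ± 52.2), with mice 6, 1 and 8 on top.

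Plk1, a kinase of mitotic entry, shows how far these readings depend on the probe set. Its brightest probe set, of a type that can share probes with related transcripts, read 543, 506, 480.1, 338, 165, 494, 449.9 and 541 (mean 439.5 ± 129), with mouse 5 far below the rest. A second Plk1 probe set, also of a shared type, read 205 to 275 in all 8 mice, a 1.34-fold range in which mouse 5 (226) did not stand apart. Another, under the threshold, was highest in mouse 6 (118).

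Among the subunits of the MCM helicase, which is loaded on origins in G1 and unwinds DNA in S phase, 5 of 6 were detected. Mcm5 varied most of the 5, with 336.5, 250, 161, 160, 269, 574, 145 and 375 in mice 1 to 8 (mean 284 ± 145), a 3.96-fold range with mice 6 and 8 highest and mouse 7 lowest. Mcm4 read 205, 184, 127, 133, 169.6, 313, 167 and 187 (mean 186 ± 57.7), also highest in mouse 6. The other detected subunits had other orders. Mcm3 read 432, 290.2, 282, 232, 291, 383, 293 and 319 (mean 315 ± 63.2), highest in mouse 1, on a probe set that can share probes with related transcripts. Mcm7 read 258, 320.3, 157, 234, 279, 306, 195 and 202 (mean 244 ± 57.2), highest in mouse 2. Mcm2 read 212, 193, 205, 181, 128, 202, 181 and 202 (mean 188.0 ± 26.7), with mouse 5 below the rest. The subunits act as a ring with 1 copy of each, but their probe sets did not rank the livers alike. Mcm6 was under the floor in all 8 mice (4.9 to 18.3). A dimmer Mcm3 probe set, mean 110, was highest in the same livers as Mcm5 (168 in mouse 6 and 147 in mouse 8). A dimmer Mcm5 probe set (mean 75.7) was highest in mouse 3 (113).

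At the replication fork, Pcna, the sliding clamp that also serves DNA repair, read 796, 954, 749, 1041, 678, 1208, 1004 and 1045 (mean 934 ± 178), a 1.78-fold range with mouse 6 highest. Rfc1, the large subunit of the clamp loader, read 313, 293, 293, 279.9, 213, 252, 280.3 and 238 (mean 270.3 ± 33.2), a 1.47-fold range. Lig1, the ligase that joins Okazaki fragments, read 272, 173, 348, 215, 258, 285, 193 and 276 (mean 252 ± 56.5), highest in mouse 3 and lowest in mouse 2. The other 4 fork genes, Fen1, Pola1, Prim1 and Top2a, were not detected by their means.

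Thymidine kinase (Tk1), the salvage enzyme of thymidylate supply, had an order of its own. It read 1444, 1524, 1195, 1360, 1280, 1018, 1355 and 1193 (mean 1296 ± 160), so mouse 6 was the lowest of the 8. A second Tk1 probe set with a mean of 144 ran from 31.4 in mouse 8 to 297 in mouse 4 and did not follow the first. Rrm1 and Rrm2, the subunits of ribonucleotide reductase, were not detected by their means (64.7 and 71.5), and both were highest in mouse 6.

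Tests of the spread of single genes followed. In an F test of each variance against that expected at its brightness (limma's squeezeVar, Benjamini-Hochberg over all 6265 tested probe sets), 0 of the 20 detected genes and 0 of the 4869 tested genes (0%) had an adjusted p under 0.05. At an unadjusted p under 0.05 there was 1 of the 20, Mcm5, against 5.65% of all tested genes. A chi-square test, which takes the brightness trend as exact, marked 5 of the 20, against 16.7% of tested genes. The median SD between mice was 0.34 (log2) over the 20 genes and 0.23 over all tested genes, and the 20 genes were dimmer (median of the means 309 against 582).

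**Figure D2:**
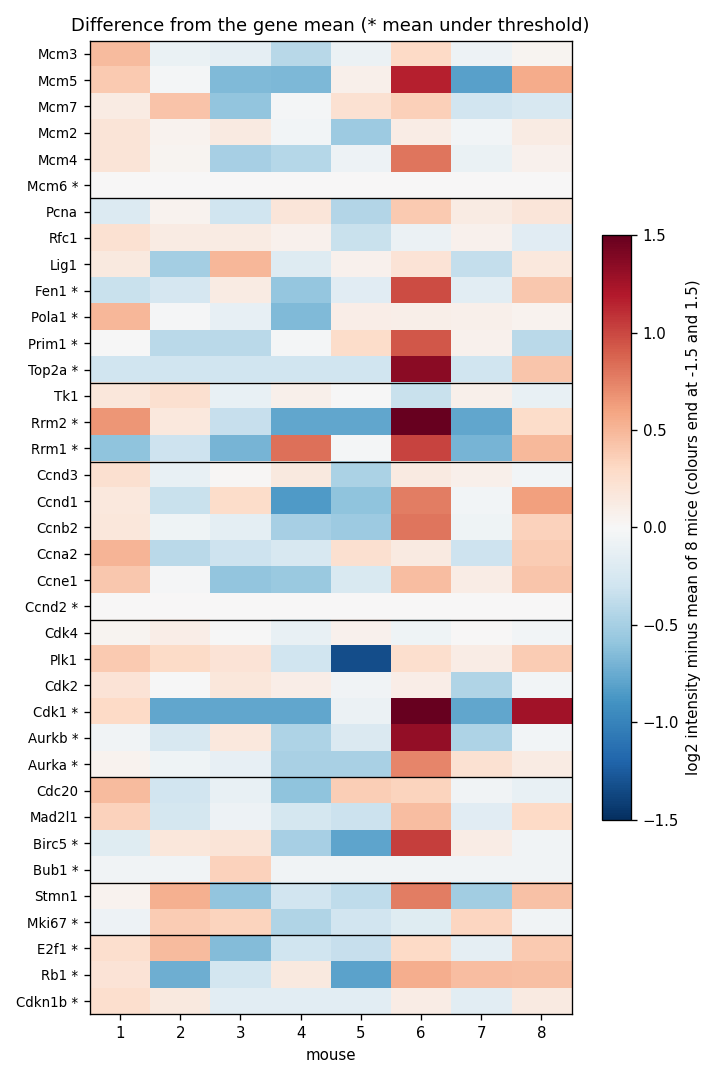
Log2 intensity of each gene minus its mean over the 8 mice, floored at 37.2, in columns for mice 1 to 8 and rows grouped by role as in the plot of levels. An asterisk marks the 17 genes with a mean under the detection threshold. The darkest red cells are in mouse 6 (Cdk1, Rrm2, Top2a, Aurkb, Mcm5) and mouse 8 (Cdk1), the darkest blue cell is Plk1 in mouse 5, and Mcm6 and Ccnd2 are blank because every value lay under the floor.

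Which liver read highest was described by counts. The genes were chosen with it known that cell cycle genes were high in mouse 6, so its count is no independent evidence of that. Mouse 6 had the highest value in 18 of the 37 measured genes, where it was highest in 15.4% of all named genes. Among the 20 detected genes the count was 8 (16.2% of tested genes), and among the 17 not detected it was 10 (14.3% of named genes that were not detected). Mouse 1 was highest in 10 of the 37 (12.7% of all named genes), and mice 4, 7 and 8 in 0 (9.87%, 10.2% and 10.2%). Among the 20 detected genes mouse 1 was highest in 8, as many as mouse 6, against 10.7% of tested genes. Mouse 8 was highest in 0 of the 20, against 10.4% of tested genes. The lowest value fell in mouse 5 for 11 of the 37 (19.4% of all named genes) and in mouse 4 for 10 (13.2%). The array of mouse 5 differed in the ratio of the 3′ to the 5′ Gapdh control, a measure of RNA quality, which was 2.67 there and 0.794 to 1.07 on the others; its part in these counts was not tested. Mouse 5 was the lowest in 7 of the 20 detected genes, and in 21% of tested genes, and mouse 4 in 4 of the 20, against 10.1%. With mouse 6 left out, mouse 1 was highest in 13 of the 37 (14.1% of all named genes) and mouse 8 in 8 (17.8%). The count for mouse 6 was 18 with arrays scaled to a common median and 19 after quantile normalization.

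**Figure D3:**
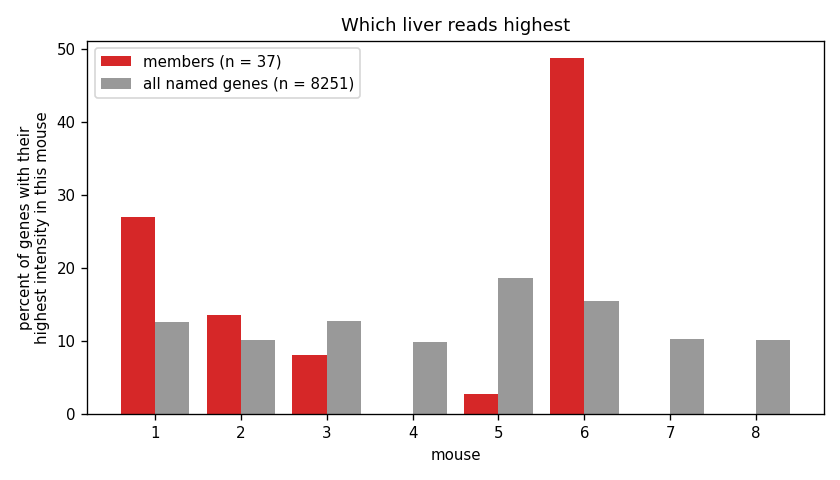
Percent of genes with their highest intensity in each mouse, for the 37 measured replication and cell cycle genes (red) and for all 8251 named genes (grey). Mouse 6 accounts for 18 of the 37 genes, against 15.4% of all named genes.

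Of the 18 genes highest in mouse 6, 10 had means under the detection threshold, 9 of them genes of S phase and mitosis and 1 Rb1. Top2a, the topoisomerase that untangles DNA before chromosomes separate, read 16.5, 13.5, 10.7, 4.9, 11.9, 116, 11.3 and 60.8 in mice 1 to 8, under the floor in 6 mice and above it only in mice 6 and 8. Cdk1, the mitotic kinase, read 78.3, 30.1, 19.1, 23.4, 60.0, 199.5, 17.5 and 152.5, with mouse 6 alone above the detection threshold and mouse 8 just under it. Mki67, the gene of the proliferation antigen Ki-67, has 2 probe sets that disagree. The dimmer read 37.3, 85.6, 11.7, 3.8, 6.8, 155, 13.0 and 93.5, with mice 6, 8 and 2 on top, and the brighter, whose name marks probes picked under relaxed rules, read 97.7 to 174 with mouse 2 highest and mouse 6 (118) below its mean of 137.

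Rrm2 read 101, 71.2, 50.2, 28.8, 27.3, 187, 29.0 and 77.1, so that mouse 6 alone was above the threshold. The flap endonuclease gene Fen1 read 88.8, 93.4, 121.5, 74.8, 99.1, 219, 99.8 and 148, with mice 6 and 8 highest and mouse 6 alone above the threshold. These 3 genes, Cdk1, Rrm2 and Fen1, were the only ones of the 17 in which mouse 6 alone passed it, as did 2.07% of the 3382 named genes that were not detected. In 5 of the 17 at least 1 mouse passed it (19.9% of those 3382 genes), the other two being E2f1 and the brighter Mki67 probe set.

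The chromosomal passenger kinase gene Aurkb read 128 in mouse 6 and 31.2 to 57.1 in the other 7 mice. Its partner Birc5 (survivin) read 133 in mouse 6 and 36.0 to 73.7 in the others, and Aurka, the centrosomal kinase gene, 86.2 and 25.4 to 60.9. In these 3 genes mouse 8 was not above the rest (49.9, 62.3 and 56.7), unlike in Top2a and Cdk1. The primase gene Prim1 was highest in mouse 6 (94.0), whereas Pola1, the catalytic subunit of its polymerase partner, was highest in mouse 1 (141). Bub1, a checkpoint kinase gene, had values under the floor in 7 mice and 49.0 in mouse 3.

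**Figure D4:**
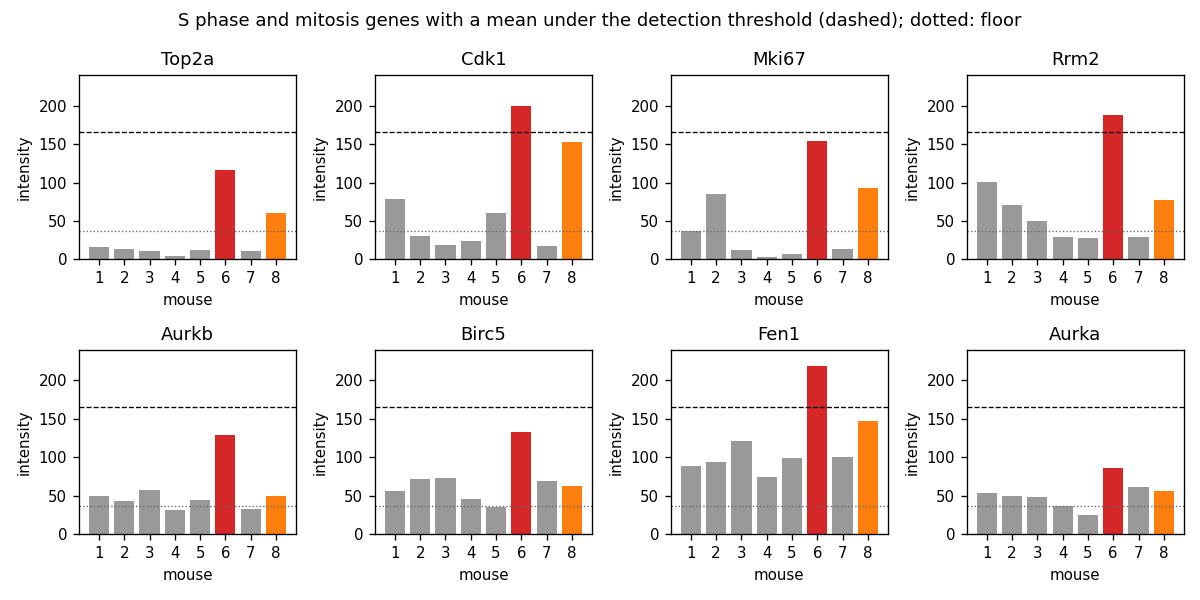
Intensity by mouse (bars start at 0) of 8 genes of S phase and mitosis, with the dimmer probe set for Mki67 and the brightest for the rest; the dashed line is the detection threshold of 165.2 and the dotted line the floor of 37.2. Mouse 6 (red) is the tallest bar in each, mouse 8 (orange) is second in Top2a, Cdk1, Mki67 and Fen1, and mouse 6 alone passes the threshold in Cdk1, Rrm2 and Fen1.

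The G1 gatekeepers were not detected. E2f1, the transcription factor of S phase genes, averaged 138 ± 37.4 on a probe set that can share probes with related transcripts, with 185 in mouse 2 and 85.2 in mouse 3, and 16.8 ± 12.6 on another. Rb1, the retinoblastoma protein that restrains E2F, averaged 67.5 ± 24.1. Cdkn1b, the CDK inhibitor p27, averaged 40.2 ± 7.12, near the floor in all mice.

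The promoters of 4 genes with a probe set that read highest in mouse 6 (for Mki67 the dimmer one) are shown because genes of G2 and mitosis share short promoter elements. RefSeq windows (GRCm38.p6) were found for 34 of the 41 genes, in 39 windows, and the 250 bases upstream of the annotated start were searched on both strands. The letters TTTGAA, the core of the cell cycle homology region bound by the DREAM and MuvB complexes, occurred in 7 of the 39 windows (17.9%) and in 16.0% of all 32851 windows. CCAAT, bound by NF-Y, occurred in 26 (66.7%, against 33.8%), and any of the E2F motif forms TTTCCCGC, TTTCGCGC, TTTGGCGC and TTTGCCGC in 6 (15.4%, against 1.86%). Top2a, Cdk1 and Mki67 each held TTTGAA at 2 places, in capitals below (TTCAAA where it lies on the other strand). Mcm5, an S phase gene, held E2F motif matches on both strands that overlap in 1 stretch, in capitals.
Top2a (chr11:99024190-99024439, minus strand): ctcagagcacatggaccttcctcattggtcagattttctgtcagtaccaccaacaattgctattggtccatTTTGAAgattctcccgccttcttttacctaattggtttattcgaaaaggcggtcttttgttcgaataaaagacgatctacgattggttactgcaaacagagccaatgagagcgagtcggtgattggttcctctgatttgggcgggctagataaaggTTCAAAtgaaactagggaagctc
Cdk1 (chr10:69352913-69353162, minus strand): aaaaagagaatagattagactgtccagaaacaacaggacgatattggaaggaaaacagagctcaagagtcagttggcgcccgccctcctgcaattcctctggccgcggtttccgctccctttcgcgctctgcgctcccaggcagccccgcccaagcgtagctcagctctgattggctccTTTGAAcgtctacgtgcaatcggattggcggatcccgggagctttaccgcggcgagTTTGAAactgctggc
Mki67 (chr7:135716380-135716629, minus strand): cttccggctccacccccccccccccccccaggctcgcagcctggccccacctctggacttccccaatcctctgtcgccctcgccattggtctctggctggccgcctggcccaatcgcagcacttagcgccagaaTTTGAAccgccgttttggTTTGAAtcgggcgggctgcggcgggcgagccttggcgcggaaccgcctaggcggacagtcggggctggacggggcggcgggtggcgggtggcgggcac
Mcm5 (chr8:75109259-75109508, plus strand): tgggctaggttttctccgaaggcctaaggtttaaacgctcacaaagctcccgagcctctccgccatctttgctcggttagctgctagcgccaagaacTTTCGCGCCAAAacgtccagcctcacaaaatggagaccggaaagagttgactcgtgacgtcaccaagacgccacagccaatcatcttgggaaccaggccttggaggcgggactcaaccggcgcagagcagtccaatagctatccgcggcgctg
A match is a description of the letters and not of a bound site. Birc5, which was also highest in mouse 6, held no TTTGAA in this window, and Cdc20, which was highest in mouse 1, did.

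Earlier results of these arrays had shown that leukocyte genes differ widely between the 8 livers and that cell cycle and macrophage genes were both high in mouse 6. The genes and the score were chosen with that known, so the counts below are no independent evidence of a relation. Each probe set was fitted against a macrophage score, the mean over 16 detected macrophage markers of log2 intensity minus the gene's mean. The score was -0.26, 0.08, -0.03, -0.85, -0.78, 1.69, -0.83 and 0.99 in mice 1 to 8. With limma and Benjamini-Hochberg adjustment over 6265 probe sets, 4 of the 20 detected genes were higher with the score (5.57% of tested genes) and 0 were lower (3.27%), or 4 in either direction (8.83%). They were Ccnb2, Ccnd1, Mcm5 and Stmn1. The median slope was 0.15 over the 20 genes and -0.01 over tested genes, and 17 of the 20 slopes were above 0 (46.8% of tested genes).

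Ccnb2 had a slope of 0.43 ± 0.0880 log2 units per unit of score (SE, n = 8, limma adjusted p = 0.0119), which over the range of the score is a 2.13-fold difference. Ccnd1 had a slope of 0.52 ± 0.120 (limma adjusted p = 0.0232), a 2.48-fold difference, and its dimmer probe set 0.69 ± 0.211 (limma adjusted p = 0.0757). Mcm5 had a slope of 0.61 ± 0.153 (limma adjusted p = 0.0331), a 2.94-fold difference. Stmn1, which encodes the microtubule-destabilising protein stathmin and is high in dividing cells, had a slope of 0.46 ± 0.119 (limma adjusted p = 0.0359), a 2.27-fold difference. It read 337, 469, 215.5, 265, 248, 552, 226 and 438 in mice 1 to 8, with mice 6, 2 and 8 on top. Of the 16 others, Mad2l1 (slope 0.27, limma adjusted p = 0.129) and Mcm4 (0.32, 0.152) were nearest the threshold, and Cdk4 had a slope of -0.02 ± 0.0526.

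**Figure D5:**
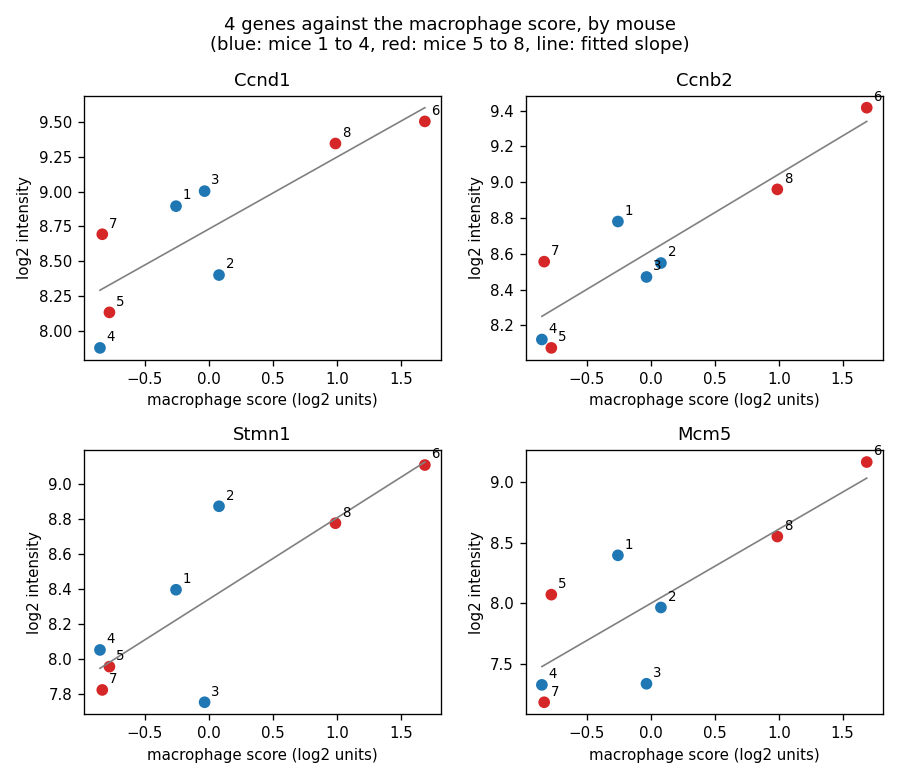
Log2 intensity of Ccnd1, Ccnb2, Stmn1 and Mcm5 against the macrophage score, 1 point per mouse (numbered; blue for mice 1 to 4, red for mice 5 to 8), with the fitted line. Mice 6 and 8 lie apart at the right of each panel, at scores of 1.69 and 0.99, and are 2 of the 3 highest mice for each gene.

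The calls depend on mice 6 and 8. Without mouse 6, 0 of the 20 genes passed (2.13% of tested genes were called higher), at slopes of 0.41 for Ccnb2, 0.64 for Ccnd1, 0.51 for Mcm5 and 0.50 for Stmn1. Without mouse 8, Ccnb2 alone passed (limma adjusted p = 0.0387), and without mouse 4 again Ccnb2 alone did. Of all tested probe sets, 289 and 396 were called in those 2 fits, against 532 with all 8 mice. Pearson's r with the score was 0.897 for Ccnb2 and 0.833 for Ccnd1 (exact two-sided permutation p = 0.00253 and 0.00933, adjusted over 4869 genes 0.0529 and 0.0937). Spearman's rho was 0.690 and 0.810 (exact permutation p = 0.0694 and 0.0218, adjusted 0.354 and 0.227). For Mcm5 and Stmn1 r was 0.810 and 0.818 (exact permutation p = 0.0122 and 0.0107, adjusted 0.104 and 0.0987) and rho 0.786 and 0.667 (exact permutation p = 0.0279 and 0.0831, adjusted 0.251 and 0.373). Without mice 6 and 8, r was 0.581, 0.562, 0.331 and 0.548 for Ccnb2, Ccnd1, Mcm5 and Stmn1, and 0 of the 4 passed. The slopes were then 0.43, 0.66, 0.29 and 0.56 (limma adjusted p = 0.721, 0.688, 0.895 and 0.726), so that of Mcm5 was smaller than over all 8 mice, that of Ccnb2 equal within rounding, and those of Ccnd1 and Stmn1 larger.

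The arrays fall into 2 sets by their spiked-in control transcripts: the CreX control read 15554 to 17571 on the arrays of mice 1 to 4 and 11361 to 12179 on those of mice 5 to 8. The labels do not say what the sets are. With the set as a block, Ccnb2 alone passed (slope 0.42, limma adjusted p = 0.0293), and Ccnd1, Mcm5 and Stmn1 had limma adjusted p-values of 0.0530, 0.0717 and 0.0550. In that fit 438 of all tested probe sets were called, against 532 without the block. Within mice 1 to 4 the least squares slopes were 0.45, 0.87, 0.45 and 0.42 for Ccnb2, Ccnd1, Mcm5 and Stmn1, and within mice 5 to 8 they were 0.42, 0.46, 0.60 and 0.49, with 4 mice in each and no test. The slope of these 4 genes was above 0 within both sets. They were picked by their slope over the same 8 mice, so this is no independent evidence. Some genes that were not called, such as Mcm2 (0.14 and 0.18), were also above 0 within both sets. Others, such as Pcna (-0.30 and 0.21), were not. Without mouse 5, 3 of the 4 calls stood, and Stmn1 was not called.

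With no filter on brightness the fit took in all 37 genes, and 3 were higher with the score (limma, 3.3% of 8251 named genes): Ccnb2 (0.45, adjusted p = 0.0487), Fen1 (0.51 ± 0.0900, adjusted p = 0.0355) and Top2a (0.62 ± 0.108, adjusted p = 0.0340). Ccnd1, Mcm5 and Stmn1 did not pass in that fit (limma adjusted p = 0.110, 0.136 and 0.139). The dimmer Mki67 probe set had a slope of 0.86 ± 0.151 (limma adjusted p = 0.0357), and the brighter one -0.01. For Mcm3 the dimmer probe set had a slope of 0.44 ± 0.0789 (limma adjusted p = 0.0378), and the brighter one 0.16 (limma adjusted p = 0.621). The dimmer Mcm5 probe set had a slope of -0.09. Cdk1 and Rrm2 had slopes of 0.95 and 0.81 without passing (limma adjusted p = 0.0925 and 0.0844). In Top2a, Cdk1, Rrm2 and the dimmer Mki67 probe set, values under the floor are tied, so differences among those readings do not enter their slopes. For Top2a 6 mice were tied, so its slope and p-value rest on mice 6 and 8. The fit with no filter was not repeated with mice left out.

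Markers of several other cell types were high or low in the same livers. The summed intensity of 19 measured macrophage markers was 47393 in mouse 6, 30161 in mouse 8 and 7645 to 15287 in the others, with 15 of the 16 detected markers highest in mouse 6. That of 10 neutrophil markers was 12534 and 11427 in mice 6 and 8 and 1552 to 4130 in the others, although Mpo, Elane, Ngp, Camp, Ly6g, Ltf and S100a9 were not detected. That of 15 T and NK cell markers was 3989 and 3468 against 544 to 1800, but 12 of the 15, the CD3 and CD8 genes among them, were not detected, and 1 of the 3 detected was highest in mouse 6. B and plasma cell markers (10 measured) summed to 2268 to 3098, with mice 6 and 8 (2460 and 2361) inside the range of the others. Cholangiocyte markers (4 measured, 1 detected) were highest in mouse 6, 422 against 217 to 313. Stellate and matrix markers (12 measured) summed to 9181 to 11943, with mouse 6 at 10708, and the mean log2 score of the 9 detected was highest in mouse 6 (0.31). Endothelial markers (8 measured) were lowest in mouse 8, 1988 against 2369 to 3792. Erythroid markers (8 measured) were lowest in these 2 mice, 9237 and 8660 against 12720 to 17778. The sum of 10 hepatocyte markers, all detected, was lowest in mouse 6 (115315, against 119374 to 160001). Their mean log2 score was instead lowest in mouse 5 (-0.185), close to mouse 6 (-0.184), and was 0.004 in mouse 8. The part of these cell types in the readings of the replication and cell cycle genes was not tested.

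Other genes of the same processes were read from 7 lists of 158 genes, of which 129 had a probe set and 65 were detected. Of the 65, 5 were higher with the macrophage score and 1 lower (5.57% and 3.27% of tested genes), and 0 passed the F test of spread. The highest value fell in mouse 6 for 17 of the 65, or 26.2%, against 16.2% of tested genes. It also did so for 21 of the 64 not detected, against 14.3% of named genes that were not detected. The lists do not share genes with the 41.

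Among the CDK inhibitors, pocket proteins, E2F and MYC genes (13 detected), 2 were higher with the score. Cdkn1a, the CDK inhibitor p21 that arrests the cycle downstream of p53, read 324.5, 272, 410, 151, 245, 544, 173 and 449 in mice 1 to 8, with a slope of 0.62 ± 0.124 (limma adjusted p = 0.00980). Mice 6 and 8 were thus highest in an inhibitor of the cycle as well as in Ccnd1 and Ccnb2. Btg2, an antiproliferative gene also induced by p53, had a slope of 0.39 ± 0.0872 (limma adjusted p = 0.0199) with 1442 in mouse 6 and 580 in mouse 5. Tfdp1, the partner of E2F factors, varied least of the list, from 602 in mouse 6 to 806 in mouse 2. The Tfdp1 probe set carries the same name mark as the brighter Mki67 set.

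Among cyclins, kinases and regulators (14 detected) 1 was higher, Ccng2, a cyclin linked to cell cycle arrest, which read 402 and 368 in mice 6 and 8 and 184 to 247.5 in the others (slope 0.39 ± 0.0980, limma adjusted p = 0.0328). Skp1, a subunit of SCF ubiquitin ligases, varied most, with 351 in mouse 5, 716 in mouse 6 and values from 1251 to 1921 elsewhere, and Cul1, its scaffold partner, least (831 to 966). Among genes of mitosis and cytokinesis (12 detected) Kif22, a chromosome-binding kinesin, was higher with the score (slope 0.72 ± 0.0907, limma adjusted p = 0.000669), with 446 in mouse 6, 315 in mouse 8 and 120 to 195 in the others. Its probe set carries the same name mark as the brighter Mki67 set. Kif20a, a kinesin of cytokinesis, varied most there, with its lowest value, under the floor, in mouse 5 and its highest, 284, in mouse 8. The Kif20a probe set is of a type that can share probes with related transcripts, as is the brightest Plk1 set. Anapc1, a subunit of the anaphase promoting complex, varied least (496 to 585).

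Of the nucleotide supply genes (6 detected), Dck, the deoxycytidine salvage kinase, was higher with the score, with 713 in mouse 6, 624 in mouse 8 and 378.5 to 494.5 in the others (slope 0.33 ± 0.0845, limma adjusted p = 0.0365), on a probe set that can share probes with relatives. Umps varied least (447 to 569). Of the origin licensing genes (6 detected) Mcm10 was lower with the score (slope -0.34 ± 0.0885, limma adjusted p = 0.0414), with 343 in mouse 6 and 700.3 in mouse 4. Its slope was opposite in sign to that of Mcm5, but both genes were low in mouse 3 (397 and 161). Cdc45 varied most (101 in mouse 5 to 236 in mouse 6) and Orc5 least (242 in mouse 6 to 334 in mouse 1). None of the 10 detected genes of the fork or the 4 of chromatin replication passed. Top1 varied most among the fork genes (429 in mouse 8 to 959 in mouse 2) and Pole3 least (837 to 1088 in mouse 1). The histone variant gene H2az1 varied most among the chromatin genes, with 1896 in mouse 6 and 864 to 1376.5 in the others (slope 0.27, limma adjusted p = 0.116), and Chaf1b least (127 in mouse 6 to 202 in mouse 2).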

How the data were processed

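Liver RNA of 8 mice of 1 group was measured, 1 array each. The labels describe each sample as 1 mouse. The intensity values were deposited by the authors, on a linear scale with 1 value for each probe set of an array, from a Hewlett-Packard GeneArray scanner per the labels; the summarizing software and detection calls are not given in the sources used here. Trimmed means, leaving out 2% of values at each end, differ by 0.0140% between arrays, so they were taken as already scaled. There were 12488 probe sets, 66 of them controls that were left out; 10833 had 1 gene symbol, 396 several and 1193 none, from the platform annotation. All 37 member symbols matched a RefSeq gene list by Entrez identifier. Values under 37.2 were raised to it before taking log2. Tests covered probe sets whose mean reached 165.2 (6265, for 4869 genes), in R 4.3.3 with limma 3.58.1 (squeezeVar with trend, prior degrees of freedom 3.80; lmFit and eBayes with trend and robust settings). Adjusted p-values are Benjamini-Hochberg over all tested probe sets, at 0.05. Correlations used the exact permutation test over 40320 pairings. Both fits were also run on simulated data with independent noise in each probe set. Many genes on these arrays were high in the same livers, so that run does not show how the tests behave here. The number of arrays limits the precision. Every member is accounted for, and of the other lists the genes with the largest and smallest SD are named by rule; those that passed were named after their values were seen. The members and lists were chosen with earlier results of these data known, including that cell cycle and macrophage genes were high in mouse 6.

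Alternatives tried were other scalings, floors, filters, covariates and tests, the array sets as a block (chosen after seeing the data), leaving out shared-probe sets, and leaving out each mouse.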

Additional observations from a re-analysis of the deposited data

Results flagged for a closer look

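In 6 of the 35 genes with any value above the floor 1 mouse lay apart from the other 7, with a gap to its neighbour, as a share of the range of log2 values, above the critical value of Dixon's test. Chance gives about 1 such gene in 20, and 13.6% of all named genes with a range were of this kind. Top2a read 116 in mouse 6, with a gap of 0.568 of the range, but 6 of its 8 values were raised to the floor, and with no floor, an alternative chosen after seeing the data, the gap was 0.204 and below the critical value. Aurkb read 128 in mouse 6 (0.654, and 0.573 with no floor). Mcm2 read 128 in mouse 5 (0.683), and Plk1 read 165 in mouse 5 on its brightest probe set only (0.604). Cdk2 read 144 in mouse 7 (0.607). Bub1 read 49.0 in mouse 3 with every other mouse under the floor, so its gap is the whole range; with no floor it was 0.199, below the critical value.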

How the results depend on the processing

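The count of probe sets past the F test of spread was 0 under every scaling, floor and filter tried, with a block for the array sets, and without each mouse. That test could hardly call a gene on these arrays, so the repeated 0 adds little. The chi-square test gave 1147 probe sets and 5 of the 20 detected genes. The slope on the macrophage score was called for 532 probe sets and 4 of the 20 genes. Without each mouse in turn these counts ran from 173 (without mouse 6) to 562 and from 0 to 4. They were 289 and 1 without mouse 8, 396 and 1 without mouse 4, and 474 and 2 without mouse 7. Without mice 6 and 8 together they were 20 and 0. With the score of T and NK cells 390 probe sets and 1 of the genes passed (Ccnd1). With the score of stellate and matrix genes 0 probe sets and 0 genes did. After quantile normalization 548 probe sets and 2 genes passed (Ccnd1 and Ccnb2). With a block for the array sets, an alternative chosen after seeing the data, 438 probe sets and 1 gene passed (Ccnb2). The exact Spearman test called 0 probe sets and 0 genes after adjustment over all probe sets; over the 4869 genes it had 734 with an unadjusted p under 0.05, 2 of them among the 20. For these changes the cause was not tested, except that fewer mice were fitted where mice were left out. Counting limma fits only, Ccnb2 lost its call under 4 of 19 alternatives, Ccnd1 under 7 of 19, Mcm5 under 10 of 18 and Stmn1 under 12 of 19. No slope that was called changed sign. The exact Pearson and Spearman tests are not in that tally, and in each of them 0 of the 4 genes passed after adjustment. Over all 4869 tested genes the Pearson test called 215, with 0 among the 20 detected genes, and the Spearman test called 0. Detected genes numbered 20 with the threshold at the 90th percentile of the silent set (184) and 33 with it at the 25th percentile of all values. The number of arrays and, for dim genes, the signal over background limit what can be detected. No paired analysis was possible because there is 1 group.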
